A study of Caenorhabditis elegans with 2 samples.

Results

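FAX-1 ChIP-seq regions at genes for small nucleolar RNAs (snoRNAs) and small nuclear RNAs (snRNAs) of C. elegans were examined. Overlapping rows of the loosely called list from pooled replicates were merged, and each merged region was represented by the summit of its strongest row. A region was taken when its summit lay in, or within 1000 bp of, a gene annotated as snoRNA or snRNA on the WBcel235 assembly and not within 500 bp of a tRNA gene. The rule took 271 of 12691 nuclear regions: 230 nearest to a snoRNA gene and 41 nearest to a gene annotated as snRNA. They belonged to 231 genes, of which 38 had more than 1 region. The rule used positions only, and 3 regions near a small RNA gene were left out for a tRNA gene. At the edge of the rule, the farthest region taken lay 993 bp from F59C6.15 (signal 46.8) and the nearest one not taken lay 1003 bp from C16A3.11 (signal 37.7). The region taken closest to a tRNA gene was 553 bp from it (M163.14, 43.6), and of those left out the farthest was 222 bp from it (T19C4.12, 41.0).

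The study held 1 group with 2 biological replicates: hermaphrodite worms of strain OP164, late embryos collected 4 h after synchronization by bleaching of eggs, whole animals. The animals carried a transgene for FAX-1, a nuclear hormone receptor known for its part in interneuron identity, with a GFP-FLAG tag at its C-terminus, and chromatin was precipitated with an antibody against GFP. No untagged strain, other stage or other factor is analysed here, so none of the values has a comparison without the tagged protein. A signal is the deposited score of a peak, on a scale that the labels and files do not state. The authors also deposited a final list of 830 peaks that passed a reproducibility filter between replicates, and these were exactly the 830 strongest rows of the pooled list, all with a signal of 98.3 or more. Regions in the final list are called strong here and the others weak, so the contrast between them is one of signal.

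SnoRNAs guide the chemical modification of ribosomal and other RNAs in the nucleolus. Many are cut from introns of host genes, and others are transcribed from promoters of their own. Most U snRNAs, the RNA parts of the spliceosome, and the spliced-leader RNAs, which nematodes join to the 5′ ends of messenger RNAs, are made by RNA polymerase II from short promoters with a proximal sequence element. RNA polymerase III makes tRNAs from a promoter inside the gene, where the factor TFIIIC binds an A box and a B box.

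The sequence just before the genes is shown first, because the strongest regions had their summits there. Every sequence is the 100 bp before the annotated 5′ end, read 5′ to 3′ on the gene's own strand from the RefSeq genome of WBcel235. In the first set, snoRNA genes with both boxes, capitals mark the A box and the B box. The A box pattern was TGG, any 3 bases, then AGTGG, or TGG, any 3 bases, AG, any 2 bases, then GG. The B box pattern was GTTC, any base, A, any 2 bases, then C. These patterns were chosen after the sequences had been seen, and a match describes letters, not a bound site. The last gene, Y59E1B.14, had both boxes and a weak region, and the others had a strong summit before the gene. Most of the stretch before C51F7.3 lies inside another annotated snoRNA gene, C51F7.4.
W03C9.9, chrII:11960798-11960897, plus strand: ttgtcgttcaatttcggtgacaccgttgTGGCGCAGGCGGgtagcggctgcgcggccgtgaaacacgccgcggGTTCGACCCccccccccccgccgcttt
T03F7.8, chrV:11314158-11314257, plus strand: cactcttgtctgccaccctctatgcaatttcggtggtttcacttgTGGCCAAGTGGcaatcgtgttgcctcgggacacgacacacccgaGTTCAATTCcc
Y43F8C.22, chrV:19643188-19643287, minus strand: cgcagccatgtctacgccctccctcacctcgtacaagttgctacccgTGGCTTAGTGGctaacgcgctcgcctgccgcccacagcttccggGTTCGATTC
C04G6.12, chrII:5105232-5105331, minus strand: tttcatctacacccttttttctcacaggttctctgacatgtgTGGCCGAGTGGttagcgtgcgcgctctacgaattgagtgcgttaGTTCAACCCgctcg
F32E10.10, chrIV:7574022-7574121, plus strand: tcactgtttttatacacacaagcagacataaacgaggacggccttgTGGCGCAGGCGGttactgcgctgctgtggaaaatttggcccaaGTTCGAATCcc
F55A11.10, chrV:11782892-11782991, plus strand: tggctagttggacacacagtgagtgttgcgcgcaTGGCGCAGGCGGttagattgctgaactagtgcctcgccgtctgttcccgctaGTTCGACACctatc
Y75B12B.12, chrV:15191094-15191193, minus strand: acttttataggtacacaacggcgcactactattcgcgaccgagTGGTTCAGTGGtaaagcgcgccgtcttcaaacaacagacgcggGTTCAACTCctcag
C51F7.3, chrV:12303608-12303707, plus strand: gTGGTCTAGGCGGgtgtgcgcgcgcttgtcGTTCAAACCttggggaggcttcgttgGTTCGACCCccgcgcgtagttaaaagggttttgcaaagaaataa
Y59E1B.14, chrX:1891409-1891508, plus strand: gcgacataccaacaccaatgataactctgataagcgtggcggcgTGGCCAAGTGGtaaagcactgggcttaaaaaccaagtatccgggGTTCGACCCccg
Of W03C9.9, the gene itself (chrII:11960898-11960959, plus strand) begins right after the stretch above, and its capitals mark a C box (TGATGA) and a D box (CTGA), the signature of snoRNAs that guide methylation.
W03C9.9 gene: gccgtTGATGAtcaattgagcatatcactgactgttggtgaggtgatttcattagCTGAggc

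The second set shows the proximal element for comparison, in 1 snRNA gene with a strong summit before it (F54D8.7), in the spliced-leader gene sls-2.15 and in the snoRNA gene C05H8.3, which had no summit in the 250 bp before it. Capitals mark ACCC, any 3 bases, A, any 2 bases, then TGTC, a pattern that was also chosen after the sequences had been seen.
F54D8.7, chrIII:5080899-5080998, minus strand: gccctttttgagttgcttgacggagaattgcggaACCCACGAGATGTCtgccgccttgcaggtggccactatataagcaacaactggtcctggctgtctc
sls-2.15, chrIII:11090910-11091009, plus strand: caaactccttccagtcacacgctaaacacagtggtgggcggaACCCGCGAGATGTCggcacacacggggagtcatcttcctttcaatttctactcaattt
C05H8.3, chrIII:5653969-5654068, minus strand: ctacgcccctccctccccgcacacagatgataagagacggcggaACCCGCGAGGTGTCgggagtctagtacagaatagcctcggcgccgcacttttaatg

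Regions at these genes were strong more often than regions elsewhere. Of the 271 regions, 69 (25.5%, 95% Wilson interval 20.6 to 31.0) were in the final list, against 6.17% of all nuclear regions and 5.75% of the nuclear regions not at these genes. The difference from the latter was 19.7 percentage points (interval 14.9 to 25.2). Other regions within 500 bp of a protein-coding 5′ end reached 10.7% (358 of 3331), and regions inside protein-coding genes away from starts 1.69% (93 of 5501). Regions at tRNA genes were strong more often still, at 46.7% (147 of 315). Strong regions at snoRNA and snRNA genes had a median signal of 205 (lowest 99.2, highest 668), against 136 over the other 714 nuclear strong regions and 150.4 over those at tRNA genes. The 69 strong regions belonged to 69 different genes. All intervals cover counting error only, and neighbouring or near-identical genes make the regions less independent than their number.

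The strong summits were packed into a short stretch just before the gene. Of 69, 61 (88.4%, interval 78.8 to 94.0) lay upstream, 3 inside and 5 downstream, whereas of the 202 weak ones 114 (56.4%) lay upstream and 72 downstream. Within 1 to 100 bp upstream stood 50 of the strong summits (72.5%) and 26 of the weak ones (12.9%). The 55 strong summits in the 250 bp before a gene lay between 2 and 176 bp from the 5′ end, with a median of 46 bp and quartiles of 32.5 and 56 bp. Between 20 and 80 bp before the 5′ end stood 40 of 69 strong and 14 of 202 weak summits. A protein-coding 5′ end lay within 500 bp of 16 of 69 strong summits (23.2%, interval 14.8 to 34.4) and 57 of 202 weak ones (28.2%, 22.5 to 34.8), and these intervals overlap.

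**Figure D1:**
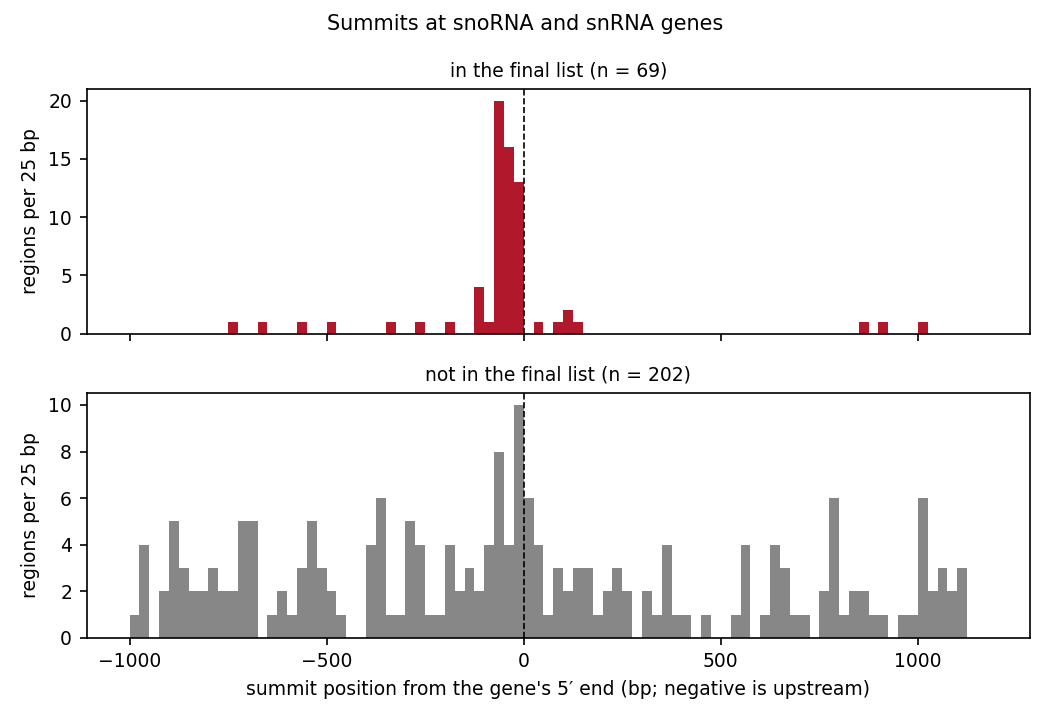
Number of regions per 25 bp by the position of the summit from the annotated 5′ end of the nearest snoRNA or snRNA gene, in bp, for 69 regions in the final list (top) and 202 others (bottom); the dashed line is the 5′ end. Strong summits pile up just left of the line, with a median of 46 bp before it for the 55 within 250 bp upstream, and weak ones spread over the whole range with a lower rise at the gene.

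Read by distance, the share of strong regions fell steeply away from the gene and differed between its sides. It was 65.8% (50 of 76, interval 54.6 to 75.5) at 1 to 100 bp upstream, 27.8% (5 of 18) from there to 250 bp, 11.1% (3 of 27) from there to 500 bp and 5.56% (3 of 54) from there to 1000 bp. Downstream of the gene it was 16.7% (2 of 12) at 1 to 100 bp, 0 of 11 and 0 of 10 in the next bins, and 6.82% (3 of 44) beyond 500 bp. Over all distances, 34.9% of upstream and 6.49% of downstream regions were strong, a difference of 28.4 points (interval 18.1 to 36.6). Only upstream within 250 bp did the intervals of the shares exclude the 6.17% of all nuclear regions. In every other bin, and inside the gene, they held it.

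**Figure D2:**
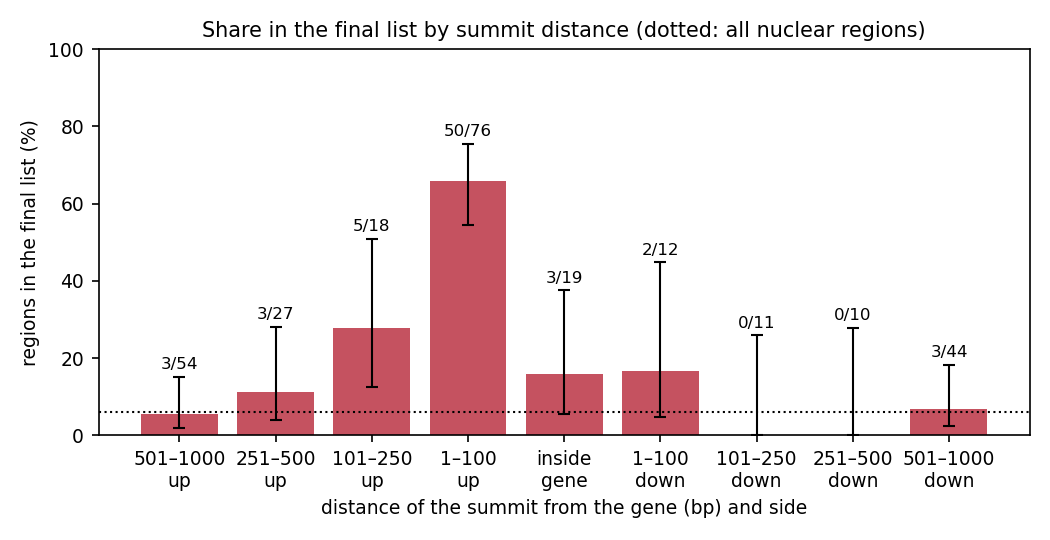
Percentage of regions in the final list by the distance of the summit from the gene (bp) and its side; bars are shares, error bars 95% Wilson intervals, numbers are strong regions of all regions in the bin, and the dotted line is the 6.17% of all nuclear regions. The bin at 1 to 100 bp upstream stands out, with 50 of 76 regions strong.

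The strongest region, with a pooled signal of 668, had its summit inside the snoRNA gene C51F7.4 (V:12303599-12303693, plus strand) and 69 bp before the next snoRNA gene, C51F7.3, so it cannot be tied to 1 of them. Its signal was 416 in replicate 1 and 253 in replicate 2. Both genes lie within frm-7, and C51F7.4 also overlaps a protein-coding exon. The next, 104 bp before W03C9.9, had 621 pooled, 401 in replicate 1 and 220.3 in replicate 2. Next came ZK265.10 on chromosome I, 56 bp before the gene, with 552 pooled, 348 and 203 in the replicates. All 3 ranked among the 25 strongest rows of each replicate. W03C9.9 and ZK265.10 lie outside protein-coding genes, and the annotation used here gives no target RNA for any of these snoRNAs.

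Genes within introns were among the strongest as well. ZK994.7, within pxn-1, which encodes a peroxidasin of the extracellular matrix, had 551 pooled, 351 in replicate 1 and 199 in replicate 2, with its summit 11 bp before the gene. F38E11.14, within the cyclic nucleotide-gated channel gene cng-3, had 502 pooled, 305 and 196, its summit 51 bp before the gene. T03F7.8, on the strand opposite to its host cutl-18, had 441 pooled, 257 and 191, at 47 bp. The protein-coding start nearest to the summit, of the host or another gene, was 5679 bp away for ZK994.7 and 2690 bp for T03F7.8. For F38E11.14 it was 294 bp away, within the 500 bp that counts here as near a protein-coding start. Y43F8C.22, within Y43F8C.7, followed with 428 pooled, 277 and 153, at 51 bp. C04G6.12, opposite to mpk-2, a mitogen-activated protein kinase gene, had 405 pooled, 257 and 145, at 53 bp.

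The rest of the 20 strongest had the same placement with few exceptions. Outside genes, T06C12.16 had 483 pooled, 273 in replicate 1 and 209.5 in replicate 2, 45 bp before the gene. F59C6.15 had 420.4 pooled, 278 and 141 at 122 bp. F32E10.10 had 337 pooled, 226 and 108 at 44 bp. These summits were all upstream, and so were those of H09I01.2 (319.7 pooled, 195 and 124, 46 bp) and T02E1.9 (377 pooled, 219.6 and 156, 53 bp), of which T02E1.9 overlaps a protein-coding gene in part. Y17G7B.25 was farther off, 255 bp before its gene, with 368 pooled, 243 and 125. Inside genes, ZK484.9 had 315 pooled, 212 and 108 at 35 bp. F55A11.10 had 293 pooled, 164 and 129 at 51 bp. C27H5.9, opposite to pdl-1, had 288 pooled, 193 and 93.4 at 22 bp. D1046.6, within cfim-2, which encodes a subunit of the mRNA cleavage factor, closed the 20 with 280.2 pooled, 169.7 and 108 at 33 bp. Replicate 1 gave the higher score for each of these 20, and its list as a whole was on a higher scale.

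Downstream summits were the exceptions, led by B0334.12, a snoRNA gene annotated on the plus strand within twk-5, a potassium channel gene on the minus strand. Its signal was 364 pooled, 245 in replicate 1 and 124 in replicate 2, with the summit 43 bp past its annotated 3′ end. On the minus strand, the 100 bp on that side held an A box and a B box that point towards the gene, with their first bases 62 and 18 bp from its annotated 3′ end. Those distances are close to the medians of 60 and 14 bp given below for boxes before 5′ ends. The stretch is printed with the boxes in capitals.
B0334.12, chrII:11484753-11484852, minus strand: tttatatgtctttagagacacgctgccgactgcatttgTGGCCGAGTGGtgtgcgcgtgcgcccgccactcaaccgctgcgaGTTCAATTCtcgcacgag
The snRNA gene W05B2.8, within dhc-4, came next among downstream summits, with 321 pooled, 212 and 109, its summit 32 bp past the gene. The summits inside genes after C51F7.4 were those of the spliced-leader genes sls-2.4 and sls-2.2, described below.

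No difference beyond the counting error was found between genes within and outside protein-coding genes. The share of strong regions was 23.1% (31 of 134) for genes inside a protein-coding gene and 26.3% (30 of 114) for genes outside, a difference of 3.18 points (interval -7.47 to 14.0), which spans 0 and does not show that the classes are alike. A further 8 of 23 regions at genes that overlap a protein-coding gene or an exon in part were strong. Of the regions inside, 24 of 112 were strong where the host lay on the same strand and 7 of 21 where it lay on the opposite strand. Within 1 to 100 bp upstream, where most strong summits stood, the shares were 68.6% (24 of 35) inside and 61.8% (21 of 34) outside. The median distance before the gene was 42 bp inside (24 strong summits) and 46 bp outside (25). Median signals of strong regions were 225 inside and 199.6 outside. SnoRNA and snRNA genes differed by 4.14 points in their share (60 of 230 against 9 of 41, interval -11.5 to 15.8). By end sequence, 23 of 59 regions at snoRNA genes that end with an ACA box were strong and 5 of 19 at genes with C and D boxes, a difference whose interval of -32.0 to 12.5 points spans 0, and at genes with neither by these simple patterns 32 of 152 were strong (21.1%, interval 15.3 to 28.2). The share at ACA genes (39.0%) was 17.9 points above that of the genes with neither (interval 4.47 to 31.9).

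The stretch before genes with strong summits carried the boxes of RNA polymerase III promoters far more often than the stretch before other small RNA genes. There were 56 genes with a strong summit in the 250 bp before them, counting C51F7.3, and 419 others. On the gene strand of the 100 bp before the gene, an A box stood in 25 of the 56 (44.6%, interval 32.4 to 57.6) and in 8 of the 419 (1.91%). The B box stood in 23 of 56 (41.1%) and 11 of 419 (2.63%). Both stood in 16 of 56 and 1 of 419, and at least 1 of them in 32 and 18. On the opposite strand, 0 of 56 had either. Before 19973 protein-coding genes an A box was found in 0.190%, a B box in 1.43%. All genes with a box and a strong summit were snoRNA genes. These shares are descriptions, since the patterns were drawn up from these same sequences. The B box core GTTCGA was at 18 of 56 against 6 of 419 genes. It had been listed earlier, but with earlier results of these data known. GTTCGA had the widest gap of all 6-base words, a ranking drawn from these same genes.

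**Figure D3:**
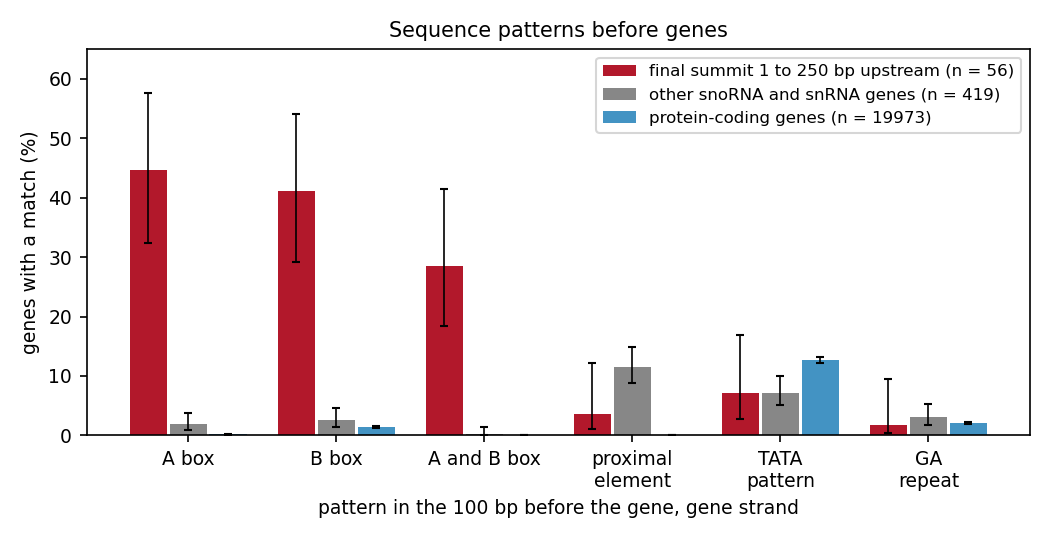
Percentage of genes with a sequence pattern on the gene strand in the 100 bp before the gene, with 95% Wilson intervals, for 56 snoRNA and snRNA genes with a strong summit 1 to 250 bp upstream, the other 419 and 19973 protein-coding genes. The A box and the B box are in 44.6% and 41.1% of the first group and in under 3% of the others. The proximal element is in 3.57% of the first group and 11.5% of the second, where 5 of 56 and 124 of 419 are snRNA genes.

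Taken the other way, 16 of the 17 genes with both boxes had a strong summit before them, 32 of 50 with at least 1 box, and 24 of 425 (5.65%) with neither. The 17th was Y59E1B.14 on chromosome X, whose summit lay 165 bp before the gene with a signal of 31.7 pooled and 29.2 in replicate 1, and no overlapping row in replicate 2. Of the genes with a strong summit before them, an A box stood in 14 of 25 inside protein-coding genes and 9 of 25 outside, and at least 1 box in 17 and 11. The latter differ by 24 points, with an interval of -3.24 to 46.8 that spans 0. All 8 genes with both boxes that lie inside a protein-coding gene had a strong summit before them, and 7 of 8 that lie outside. The spacing was narrow. In the 56 genes, the A box began 52 to 99 bp before the gene (median 60, n = 25) and the B box 9 to 44 bp before it (median 14, n = 23), and A and B boxes began 43 to 55 bp apart (median 44, n = 16). Where a gene had several B boxes, the one nearest to the gene was taken. This applied to C51F7.3 alone, whose other B box began 70 bp before the gene and 29 bp after the A box. The boxes of C51F7.3 lie within the annotated snoRNA gene C51F7.4, and they gave the upper end of each of these ranges. Of 15 strong summits before a gene with both boxes, 12 lay between the first base of the A box and the last base of the B box. W03C9.9, with its summit 104 bp and its A box 72 bp before the gene, was one of the other 3. That leaves 24 of the 56 genes with neither box by these patterns, among them ZK994.7 and F59C6.15.

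**Figure D4:**
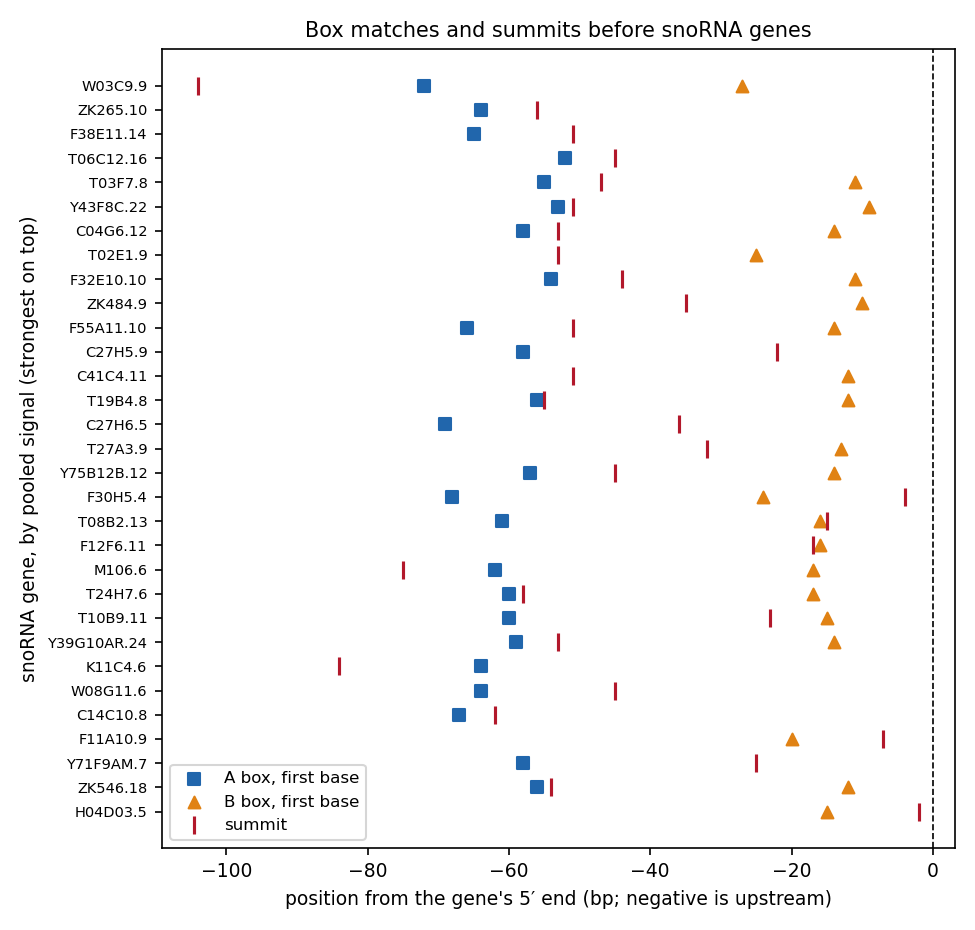
Positions of A box matches (squares), B box matches (triangles) and strong summits (ticks) in bp from the 5′ end (dashed line, negative is upstream) for the 31 snoRNA genes with a box and a strong region of their own, strongest on top. A boxes stand at a median of 60 bp and B boxes at a median of 14 bp before the gene, with most summits between the columns.

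The proximal element stood before few genes with strong summits, with intervals that overlap those of the others (0.985 to 12.1% and 8.75 to 14.9%). Which RNA polymerase transcribes the genes with this element was not tested. The element stood before 2 of the 56 genes with a strong summit, F59C6.15 and F54D8.7. Among the 419 others it stood before 48 (11.5%), 31 of them snRNA genes. The 2 groups differ in their mix of gene types. Among snoRNA genes the counts were 1 of 51 and 17 of 295, and among snRNA genes 1 of 5 and 31 of 124. Within each type the intervals overlap. The element was before 8 of 19973 protein-coding genes. Its place was as regular as that of the boxes, beginning a median of 57 bp before the gene in the 48. Of the 50 genes with the element, 11 had any pooled summit in the 250 bp before them. Their median signal was 42.2, close to the 40.6 of all nuclear regions. Genes with both boxes had a median of 235.4 (17 genes). These medians leave out summits inside or past the gene. Among genes with the element, such summits included those 32 bp past W05B2.8 (321 pooled) and 30 bp past F47G4.9 (65.5). Farther past the gene stood those of sls-2.15 (260.0, at 751 bp), F54F11.6 (47.1, at 674 bp) and ZK897.4 (37.8, at 544 bp). Others stood inside Y53F4B.47 (96.8), sup-6 (91.3), smy-2 (71.5), smy-3 (37.2) and Y74C9A.6 (35.5). An absent match says only that these letters are not in the 100 bp.

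Among the 30 spliced-leader genes, only those of the second leader type had regions. None of the 12 sls-1 genes had a pooled summit within 1000 bp, and a count of 0 of 12 has a Wilson interval up to 24.2%. The sls-1 genes fall into 2 sets of identical sequences, so reads from them may not map to a single place, and the labels do not say how such reads were treated. Of the 18 sls-2 genes, 11 had a pooled summit within 1000 bp and 5 a strong one. The 8 regions nearest to sls-2 genes included 4 strong ones.

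sls-2.4, on chromosome I, had 261 pooled, 149 in replicate 1 and 110.5 in replicate 2, with its summit inside the gene, 77 bp past the 5′ end. sls-2.2 (II:5543598-5543707, plus strand) had 175 pooled, 112 and 62.7, with the summit inside the gene near its 3′ end. Noncoding RNA genes on the opposite strand, R12E2.18 and C17C3.23, are annotated across most of these 2 genes. sls-2.1 (II:5844865-5844974, plus strand) had 168 pooled, 100.8 and 71.9, its summit 41 bp before the gene. The region assigned to sls-2.15 had 260.0 pooled, 162 and 99.4, but its summit stood 862 bp past the 5′ end. The gene lies within W09D6.5 and the summit within hmt-1, on the other strand, so only 1 strong summit lay just before a spliced-leader gene. The weak regions were those of sls-2.10 (50.8 pooled), sls-2.17 (39.4), sls-2.8 (33.3) and sls-2.16 (32.1). The proximal element stood before 6 of the 15 genes in the largest sls-2 sequence group. None of these 6 had a strong summit in the 250 bp before the gene. Of all 18 sls-2 genes only 1 had such a summit, so the count does not set the genes with the element apart.

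The other genes annotated as snRNA gave 33 regions, of which 5 were strong (15.2%, interval 6.65 to 30.9). The annotation does not name their U families, so they were grouped by sequence identity of at least 80%. One group of 23 genes with a median length of 102 bp held 4 of the 5: W05B2.8 above, F54D8.7, R07E5.16 and C28A5.7. F54D8.7 (III:5080798-5080898, minus strand) had 147 pooled, 95.9 in replicate 1 and 50.4 in replicate 2, its summit 10 bp before the gene. R07E5.16, within mpc-1, had 109.9 pooled, 77.4 and 32.8, at 39 bp. C28A5.7, within C28A5.6, had 100.8 pooled, 78.9 and 26.7, at 52 bp. In replicate 2 the last 2 fell outside the 830 strongest rows. C52E4.8, in a group of 5 genes, had 99.2 pooled, 63.1 and 36.3, at 39 bp, and was in the 830 strongest rows of neither replicate. Each of these 5 strong snRNA genes has at least 1 identical copy elsewhere in the genome, 14 copies in all for the sequence shared by W05B2.8, R07E5.16 and C28A5.7, so their signal cannot be assigned to a single copy with certainty.

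The other large snRNA groups had weak regions only. With so few regions per group, and 6.17% of all nuclear regions strong, this does not set these groups apart. A group of 19 genes (median length 187 bp) had 7 regions, none strong: the genes were T14B4.10 (48.5 pooled), F08G2.11 (42.2), F08G2.10 (38.3), C05G6.4 (34.7), W04G5.11 (34.1) and Y54G9A.8 (32.8 and 31.8). A group of 13 that includes the genes sup-6 and sup-39 had 5: sup-6 had 91.3 pooled, 55.8 and 42.2 in the replicates, the strongest weak region of any snRNA gene. H27M09.6 (75.3), T08G5.11 (40.1), T27E4.12 (33.5) and sup-39 (33.2) followed. A group of 12 had 6 regions, at F38E11.10 (70.3), ZK897.2 (66.7 and 44.1), F32B5.9 (65.03), F42C5.12 (53.9) and ZK897.4 (37.8). In the group of 23, weak regions were at Y17G9A.85 (61.7), C28A5.7 (34.0), Y9C9A.111 (33.9), K09C6.12 (33.0), F54C8.10 (32.6) and B0205.15 (32.4). The remaining weak regions were at smy-4 (41.8), M163.13 (38.8), T11F9.15 (34.4) and smy-10 (33.0).

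Most strong regions were among the strongest in each replicate. Of the 69 strong regions, 66 overlapped one of the 830 strongest rows of replicate 1, against 6.16% of all nuclear regions, and 62 one of replicate 2, against 6.13%. Both applied to 60 (87.0%, interval 77.0 to 93.0), against 4.46% of all nuclear regions. Of the 202 weak regions, 2 did so in replicate 1, 10 in replicate 2 and 0 in both. The scores of the groups overlapped. In replicate 1 the weak regions reached 67.3, and 4 of the 69 strong ones were at or below that. In replicate 2 the weak regions reached 56.9, and 18 strong ones were at or below that. The pooled list, which defines strong and weak, was made from these same replicates, so the counts describe the spread between them and are no independent check. Across the 69 regions the scores of the replicates had a Pearson correlation of 0.94 and a Spearman correlation of 0.89, and across the 120 weak regions found in both lists 0.42 and 0.44. These points are regions of the same 2 libraries, and p-values were not computed.

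**Figure D5:**
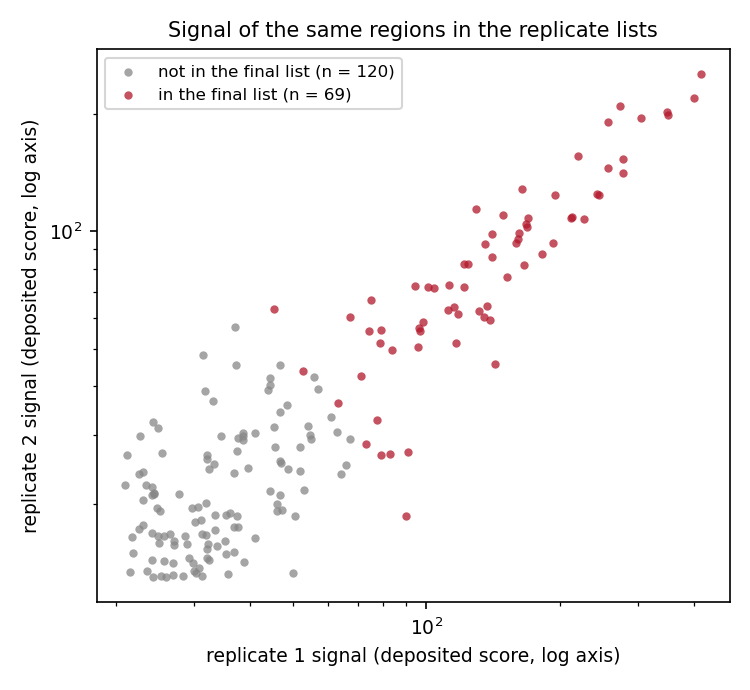
Deposited score in replicate 1 (horizontal) and replicate 2 (vertical), both on log axes, for each region at a snoRNA or snRNA gene that overlaps a row in both lists: 69 in the final list and 120 others. The scores of the strong regions rise together (Spearman 0.89), and the groups overlap: 4 strong regions in replicate 1 and 18 in replicate 2 score no higher than the highest weak region.

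The 9 strong regions not among the strongest rows of both replicates had pooled signals of at most 110.2. The largest gap was at B0393.10, a snoRNA gene within fbxl-2, with 107.8 pooled, 90.1 in replicate 1, where it ranked 427, and 18.6 in replicate 2, where it ranked 6513. C26C6.13 went the other way, with 110.2 pooled, 45.4 and 63.4 and ranks of 1737 and 269. K04D7.17, at 99.7 pooled, 52.9 and 43.9, was among the strongest rows of replicate 2 only. Just below the threshold stood Y53F4B.47 (96.8 pooled, 67.3 and 29.4), W01H2.11 on chromosome X (94.4 pooled, 61.1 and 33.3) and C53B7.8, also on X (93.9 pooled, 66.0 and 25.1). C53B7.8 had a B box before it and its summit at 38 bp, a place like that of the strong regions.

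Of the summits farther than 250 bp from their gene, 9 were strong and 126 weak, and 6.17% of all nuclear regions were strong. As given above, the intervals of the shares in the bins beyond 250 bp held that value. Of the 9 strong summits, 5 lay within 500 bp of a protein-coding 5′ end. They were K11H12.13, within the ribosomal protein gene rpl-15 (246 pooled, 166 and 81.9, summit 554 bp before the snoRNA gene and 339 bp from a protein-coding start), F28D1.13, within the ribosomal protein gene rps-23 (197 pooled, 131 and 62.4, at 675 and 257 bp), C06A1.9, within cdc-48.1 (188 pooled, 112 and 72.9, at 497 and 154 bp), B0393.10 (at 737 and 50 bp) and F20D12.10 (136 pooled, 78.7 and 51.6, at 858 and 286 bp). In these the summit was nearer to the protein-coding start than to the small RNA gene.

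Chromosome X gave 1 strong region of this kind. It holds 36 of the 475 snoRNA and snRNA genes, and 1 had a strong summit within 1000 bp (2.78%, interval 0.492 to 14.2), F52G3.6, whose summit lay 712 bp downstream of the gene with 139 pooled, 96.7 and 55.4. On the autosomes the share of genes ran from 14.4% (13 of 90) on chromosome I to 21.8% (19 of 87) on chromosome II. By regions, 1 of 15 on X was strong (6.67%, interval 1.19 to 29.8), and on the autosomes 68 of 256 (26.6%), from 21.3% to 34.2% by chromosome. The difference of 19.9 points has an interval of -3.80 to 27.8 that spans 0. Of all nuclear regions, 6.66% were strong on X and 5.55% to 7.02% on the autosomes. Over all chromosomes, 73 of 475 genes (15.4%) had a strong summit within 1000 bp and 247 (52.0%) any pooled one. For snoRNA genes the count was 63 of 346 and for snRNA genes 10 of 129.

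Other short patterns were searched on both strands of a window centred on each summit and reaching 75 bp to either side. AAGTCA, the half-site recognised by receptors of the FAX-1 class, was in 3 of 69 strong and 16 of 202 weak windows, against 5.06% of all nuclear regions. The related AGGTCA was in 5 of 69 and 8 of 202, against 4.13%. GAGAGA was in 10 of 69 strong windows (14.5%, interval 8.07 to 24.7), against 26.1% (148 of 567) of the strong nuclear windows at neither small RNA nor tRNA genes and 17.1% of all nuclear regions. TATAAA was in 15 of 69, against 8.29% of those other strong windows and 16.03% of all. GTTCGA, the B box core, was in 18 of 69 strong windows (26.1%), 6 of 202 weak ones, 62.6% of the strong windows at tRNA genes and 6.201% of all nuclear regions. A tRNA pseudogene lay within 200 bp of 2 of the 69 strong summits and 2 of the 202 weak ones. The intervals of these shares overlap (0.799 to 9.97% and 0.272 to 3.54%), and the share over all nuclear regions was not counted.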

How the data were processed

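The series holds ChIP-seq of 2 biological replicates in 1 group. Peak lists on ce11 were used, and those on ce10 were not. The signal is the score that the authors deposited in column 7 of the peak lists, which have no header. The labels and files state no aligner, peak caller, reproducibility threshold or read depth, so no depth stands behind a value.

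Rows that overlapped by 1 bp or more were merged, and the same overlap linked regions to the replicate lists. Genes and symbols came from Ensembl release 115 on WBcel235. A host is a protein-coding gene that spans the whole small RNA gene. A small RNA gene counts as inside only if it is also clear of protein-coding exons. Shares have 95% Wilson intervals and differences Newcombe intervals, and with 1 group there are no tests or p-values. Sequence groups used edlib 1.3.9.post1, and tables pandas 2.3.3 on Python 3.11.15. The choice of members was tested on planted regions, and the search for the B box pattern on simulated sequences. The searches for the A box and the proximal element were not tested in this way. Members, lists and patterns were chosen with earlier results of these data known. The rule for names took the 20 strongest regions, all snRNA regions, the 3 nearest the threshold on each side and the 2 strongest of each position class. Further genes were named once their values were known. Alternatives changed the distance, the window, the merging, the overlap and the final list, or left out a replicate or regions near protein-coding starts.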

Additional observations from a re-analysis of the deposited data

How the results depend on the processing

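Of 76 values under alternatives, 66 stayed within the 95% interval of the main value. The share of regions in the final list was 36.4% and 44.1% with distances of 500 and 250 bp, where weak regions far from the gene drop out by construction, and 19.6% with the stronger 50% of the final list. The share of genes with a strong summit was 12% with that stronger 50% and 11.6% without regions near protein-coding starts. GAGAGA was in 26.1% of windows of about double the width. The median signal of all regions was 65.2 and 78.5 at 500 and 250 bp.

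With 1 replicate left out, the share of strong regions was 23.8 to 25.4%, the upstream share 80.6 to 85.3%, the median distance 48.5 to 49.5 bp, the snRNA share 15.2 to 18.6%, the gene share 15.2 to 16.2%, the GAGAGA share 16.2 to 16.7% and the difference between outside and inside -0.118 to 0.203 points. The median signal was 21.2 to 32.6, since each replicate list has a scale of its own. No paired analysis was possible because the samples form 1 group. Depth is unknown, and the small snRNA and downstream groups leave wide intervals.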

Other observations

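The pair of boxes was also looked for, after the data had been seen, in the window around every nuclear summit: an A box followed by a B box on the same strand, beginning 30 to 70 bp apart. Of regions at snoRNA and snRNA genes, 16 of 17 with the pair and 53 of 254 without it were strong. At tRNA genes the counts were 27 of 49 and 120 of 266. Elsewhere 4 of 25 with the pair were strong, against 563 of 12080 without. Those 4 had summits at III:11371475 (signal 206), V:53492 (120.2), X:3348091 (121) and X:3914488 (139.7). Their A and B boxes began 44, 45, 44 and 42 bp apart, against 43 to 55 bp before the snoRNA genes. The search allowed 30 to 70 bp, and spacings at tRNA genes and at weak regions elsewhere were not compared. From the 4 strong summits the nearest annotated snoRNA or snRNA gene was at least 14128 bp away and the nearest tRNA gene at least 17775 bp away. The nearest protein-coding start was 313, 2554, 300 and 1360 bp away, so the summits at III:11371475 and X:3348091 count as near one. Whether an unannotated gene lies at these places was not tested.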
